A study of Mus musculus with 2 samples.

Results

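Voltage-gated and TRP (transient receptor potential) ion channel genes were followed in mouse embryoid bodies with and without Elongin A. Members were chosen by symbol alone, as genes whose symbol starts with Kcn, Scn and a digit, Cacn, Trpa, Trpc, Trpm or Trpv and a digit, or Clcn, or is one of the Hcn genes. The rule took 111 of the 13697 genes named on the array, carried by 114 probes. It covers potassium, sodium, calcium, chloride and TRP pores together with their accessory subunits, and 66 of the 111 are potassium channel genes.

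Embryoid bodies are 3-dimensional aggregates of differentiating embryonic stem (ES) cells. The EloA-/- bodies came from ES cells lacking Elongin A and the EloA+/+ bodies from ES cells that carry it, and both were collected at day 4 of treatment with 2 µM retinoic acid, in serum-containing medium with N2. Elongin A is a transcription elongation factor that helps RNA polymerase II move along genes, and retinoic acid drives ES cells towards neural fates. RNA of each genotype was hybridised to 1 Applied Biosystems array, so effects of genotype cannot be told apart from those of the cell line, the culture or the array, and no difference was tested. The comparison asks which channel genes differ in level between the genotypes under this treatment.

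Ion channels set the membrane potential and carry the action potentials of neurons and muscle. Voltage-gated sodium and calcium channels depolarise the cell, potassium channels bring it back to rest and hold it there, and TRP channels admit cations in response to chemical, thermal or mechanical cues. Many genes of the family are switched on late, as neurons and heart cells mature, while a few, such as Trpm7 and the intracellular chloride transporters, are used by most cells.

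Values are intensities after quantile normalisation, which gives both arrays the same distribution. The floor is the array median, 1.03, and a gene below it on both arrays was not measured. A log2 difference is EloA-/- minus EloA+/+, with values under the floor set to the floor, so that the difference of a gene that clears the floor on 1 array is a lower bound in size and is given as "at least". A gene was called where its difference or bound reached 2-fold, and a bound below that does not show that the genotypes differed by less. Without replicates, the one measure of spread is how far probes of the same gene differ, an SD of 0.43 on the log2 scale (95% interval 0.39 to 0.47, 224 genes). It was taken from probes above the floor on both arrays, so it does not describe bounds. Such probes share the cultures and the arrays, so the SD does not measure the error of a difference between genotypes. Intensities of different probes do not rank genes by expression.

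The probe of Elongin A, Eloa, gave 3.58 on the EloA-/- array and 3.88 on the EloA+/+ array, a difference of -0.12 that had the other sign (0.05) with the values as deposited. Where that probe lies relative to the disrupted sequence was not established here, so it does not check the labels. Of 12 neuronal markers named on the array 11 were measured, with summed intensities of 281 in EloA-/- and 403 in EloA+/+ bodies. Of these sums Tubb3 held 168 in EloA-/- and 179 in EloA+/+ bodies, a difference of -0.09. By any margin 8 neuronal markers were on the lower side and 3 on the higher side. Those 3 were Gap43 (0.12), Dcx (a bound of 0.46) and Snap25 (a bound of 0.14). No neuronal marker was called higher and 3 were called lower (Stmn2, Stmn3 and Syt1), with a median difference of -0.68. Of 12 heart and smooth muscle markers 6 were measured, with sums of 18.5 in EloA-/- and 61.1 in EloA+/+ bodies. None of them was called higher and 2 were called lower (Tagln and Actc1), with a median of -0.78. Tagln, a smooth muscle gene, held most of these sums with 8.30 in EloA-/- and 41.4 in EloA+/+ bodies, and without it, a choice made after its values were seen, they were 10.2 in EloA-/- and 19.7 in EloA+/+ bodies. Of the heart genes Nppa, Myl2 and Actc1 were above the floor on both arrays and Myh6 on the EloA+/+ array only, while Tnnt2, Myh7, Myl7 and Ryr2 were below it on both. Of 10 endothelial and blood markers 7 were measured and all 7 were called higher. Cldn5 and Kdr were above the floor on both arrays. The other 5 (Tal1, Hbb-bh1, Esam, Tek and Pecam1) were above it on the EloA-/- array only, so their bounds could only be on the higher side. The sums were 150 in EloA-/- and 7.23 in EloA+/+ bodies, and Cldn5 (60.2) and Kdr (54.4) held most of the EloA-/- sum. Cdh5, Tie1 and Gata1 were below the floor on both arrays. Glial markers had sums of 18.5 in EloA-/- and 7.74 in EloA+/+ bodies (3 of 5 measured, 2 called higher, Slc1a3 and Aldoc). Skeletal muscle markers had sums of 4.55 in EloA-/- and 7.92 in EloA+/+ bodies (3 of 8 measured, Tnnt3 called higher as a bound and Acta1 called lower). Each sum runs over the measured markers of its list and takes values under the floor as they are, so a few bright probes can hold most of it. Against 5.99% of all measured genes called lower, the shares were 27.3% (neuronal), 33.3% (heart and smooth muscle) and 33.3% (skeletal muscle). Against 6.77% called higher, the shares were 100% (endothelial and blood), 66.7% (glial) and 33.3% (skeletal muscle). Each share is of the list's measured markers, as few as 3 and with bounds included, and the lists were chosen with earlier results of these data known. In such bulk RNA, fewer cells of a type and less RNA per cell cannot be told apart, and the part of these cell types in the channel values was not tested. Measured genes of chromosomes 8 and 11 had median differences of 0.43 and 0.41 and those of chromosome 6 a median of -0.26, against -0.13 to 0.00 for the other autosomes and the X. Chromosomes 6, 8 and 11 are therefore given beside the measured members that lie on them. Of the measured markers named above, Tubb3 and Acta1 lie on chromosome 8 and Aldoc and Pecam1 on chromosome 11. Their values are given without removing those medians.

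Most ion channel genes were not measured at day 4. Of 111 members 53 (47.7%) cleared the floor on one or both arrays, against 69.9% of all 13697 genes. Only 21 members (18.9%) were above the floor on both arrays, against 54.97% of all genes. A further 15 were above it on the EloA-/- array only and 17 on the EloA+/+ array only. Bounds therefore make up 60.4% of the measured members, against 21.3% of all measured genes.

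**Figure D1:**
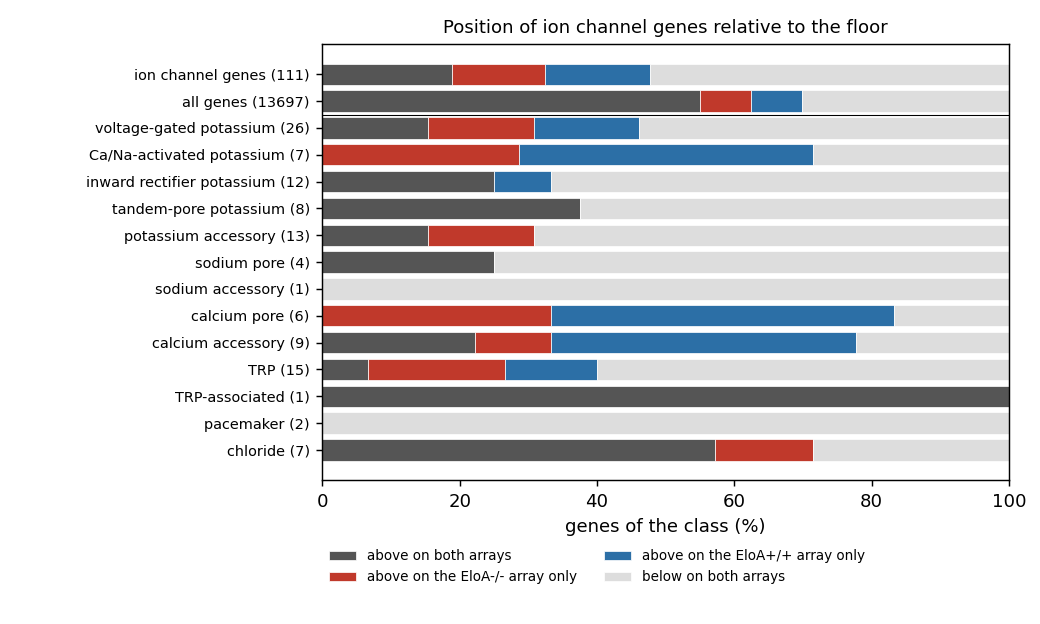
Each bar gives, for a class of channel genes (number of genes in brackets), the percentage above the floor on both arrays, on the EloA-/- array only, on the EloA+/+ array only, or below it on both. The ion channel genes together (47.7% measured) and all genes on the array (69.9% measured) stand at the top, and the calcium pore class has 5 of 6 genes measured, none of them on both arrays.

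Trpm4 was higher by the widest margin on the EloA-/- array, and Kcng4, Cacna2d3 and Kcnma1 were called lower. Cacna2d3 and Kcnma1 are bounds, so these 3 genes cannot be ranked by size. With no floor the log2 differences were -1.74 for Kcng4, -2.49 for Cacna2d3 and -2.04 for Kcnma1. Of the 53 measured members 5 were at least 2-fold higher (9.43%), namely Trpm4, Kcnh2, Kcnn3, Kcnd3 and Kcnip3, against a background of 6.77% of all 9568 measured genes. At least 2-fold lower were 3 members (5.66%), namely Cacna2d3, Kcng4 and Kcnma1, against a background of 5.99%. Both shares lie near the background, so the counts are no result about the family as a whole. With the values as deposited the members' counts were also 5 and 3, while the background became 8.36% higher and 4.70% lower. The median difference over the 53 members was -0.02, beside -0.02 over all measured genes.

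Of the 8 genes at least 2-fold apart, 6 were bounds. Among the 21 members above the floor on both arrays 1 was at least 2-fold higher (4.76%) and 1 lower (4.76%), against backgrounds of 5.23% and 4.68% of the 7529 genes above the floor on both. Among the 32 bounds 4 were higher (12.5%) and 2 lower (6.25%), against backgrounds of 12.5% and 10.8% of 2039 such genes. Among members above the floor on both arrays 9 of 21 (42.9%) differed by less than the SD between probes, as did 60.1% of all such genes.

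**Figure D2:**
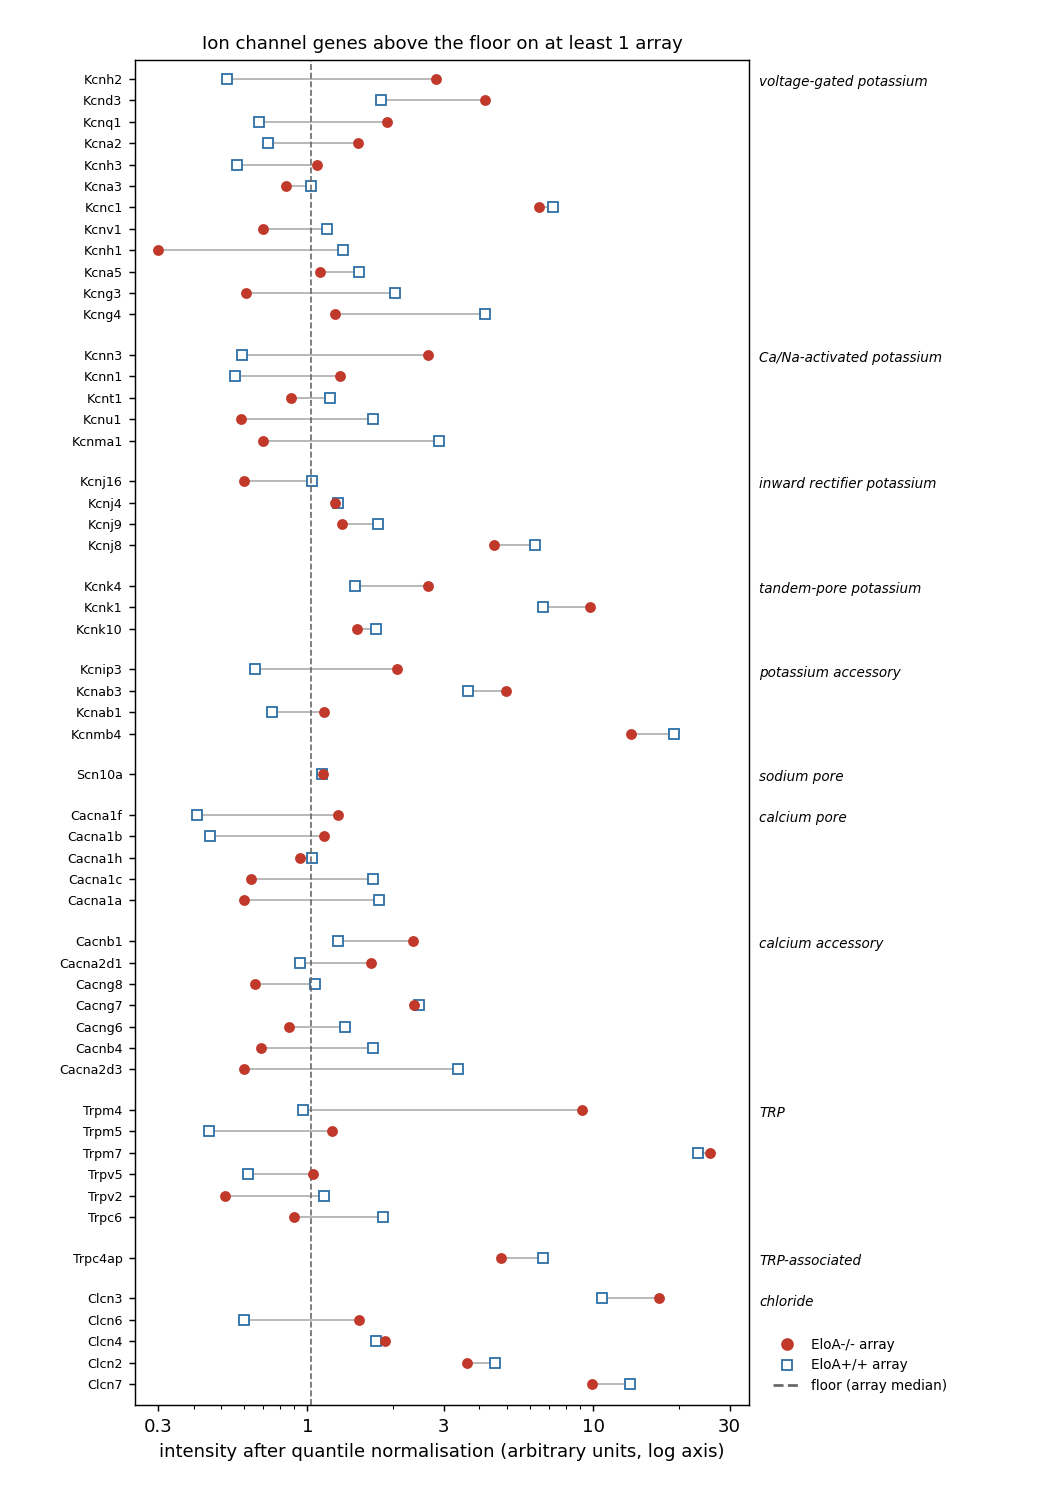
Each row is 1 of the 53 measured channel genes, with its intensity after quantile normalisation (log axis, arbitrary units) on the EloA-/- array (filled circle) and the EloA+/+ array (open square), grouped by class and ordered within a class by the difference, and the dashed line is the floor of 1.03. The longest gap to the right of the floor is that of Trpm4 (9.14 in EloA-/- and 0.96 in EloA+/+ bodies), and Trpm7 (25.5 in EloA-/- and 23.2 in EloA+/+ bodies) shows points that nearly coincide.

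Voltage-gated potassium channels, which repolarise excitable cells, held differences in both directions. Of 26 genes 12 were measured, 2 of them at least 2-fold higher and 1 lower, with a median of -0.09. Kcnd3, a pore subunit of the transient A-type current, gave 4.19 in EloA-/- and 1.80 in EloA+/+ bodies, 2.32-fold higher. It is the 1 member that was at least 2-fold higher with both arrays above the floor, and its difference fell below 2-fold (0.88 on the log2 scale) when a pseudocount equal to the floor replaced the floor. Kcnip3, a calcium-binding accessory protein that associates with pores of the Kcnd family, gave 2.06 in EloA-/- bodies and 0.66, below the floor, in EloA+/+ bodies. That is at least 2.01-fold higher, at the edge of the threshold, and with the pseudocount it was 0.88 as well. Kcnd1, Kcnd2, Kcnip2 and Kcnip4, relatives of these genes, were below the floor on both arrays.

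Kcnh2, the ERG channel of the rapid delayed rectifier current of heart, gave 2.83 in EloA-/- bodies and 0.52 in EloA+/+ bodies, at least 2.75-fold higher. Kcnq1, the pore of the slow delayed rectifier current, gave 1.90 in EloA-/- and 0.67 in EloA+/+ bodies, at least 1.85-fold higher. Both were above the floor only in EloA-/- bodies, beside a median of -0.78 for the heart and smooth muscle markers, whose part in these values was not tested. The accessory genes of these pores, Kcne1, Kcne1l, Kcne2 and Kcne4, were below the floor on both arrays, at 0.26 to 0.75 in EloA-/- and 0.29 to 0.70 in EloA+/+ bodies. Of the other ether-à-go-go genes, Kcnh1 gave 0.30 in EloA-/- and 1.34 in EloA+/+ bodies, and Kcnh3 gave 1.08 in EloA-/- and 0.57 in EloA+/+ bodies, each a bound.

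Kcng4 and Kcng3 ran the other way. They encode electrically silent subunits, which form no channel alone and modify other voltage-gated potassium pores. Kcng4 gave 1.25 in EloA-/- and 4.19 in EloA+/+ bodies, 3.34-fold lower with both arrays above the floor, and it lies on chromosome 8, where the median gene was higher. With the median of its chromosome removed its difference was -2.17, and with the pseudocount it was -1.19. Kcng3 gave 0.61 in EloA-/- and 2.03 in EloA+/+ bodies, at least 1.97-fold lower. Kcnv1, the only other silent subunit measured, gave 0.70 in EloA-/- and 1.17 in EloA+/+ bodies. All 3 measured silent subunits of 7 were thus on the lower side by any margin, as were 51.6% of all measured genes, and the grouping was made after the values were seen. Kcns1, Kcns2, Kcns3 and Kcnv2 were below the floor on both arrays.

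None of the remaining pores of this class was called. Kcnc1, which supports fast firing, gave 6.44 in EloA-/- and 7.26 in EloA+/+ bodies, and its other probe was below the floor on both arrays (0.82 in EloA-/- and 0.66 in EloA+/+ bodies) with the opposite sign. In the Shaker family Kcna5 gave 1.11 in EloA-/- and 1.52 in EloA+/+ bodies, a difference of -0.45 that was -0.19 with the median of chromosome 6 removed. Kcna2 gave 1.5 in EloA-/- and 0.73 in EloA+/+ bodies, while Kcna3 lay at the floor. Kcna1, Kcna4, Kcna6, Kcna7, Kcnc4, Kcnd1, Kcnq3, Kcnh5 and Kcnh7 were below the floor on both arrays.

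Because members at least 2-fold apart are few, the start regions of 4 of them are shown for their contrast in CpG content, a sequence feature of promoters that the choice of members did not use. The windows are the 150 bases before the first listed transcript start in RefSeq (GRCm38.p6), in lower case with each CG in capitals. Kcnd3 was higher and Kcng4 lower with both arrays above the floor, and Kcnn3 was higher and Kcnma1 lower among calcium-activated potassium channels.
Kcnd3, chr3:105451740-105451889, plus strand: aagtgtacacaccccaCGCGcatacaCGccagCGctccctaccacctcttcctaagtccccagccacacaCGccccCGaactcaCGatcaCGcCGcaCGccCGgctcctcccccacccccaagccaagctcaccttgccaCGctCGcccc
Kcng4, chr8:119635681-119635830, minus strand: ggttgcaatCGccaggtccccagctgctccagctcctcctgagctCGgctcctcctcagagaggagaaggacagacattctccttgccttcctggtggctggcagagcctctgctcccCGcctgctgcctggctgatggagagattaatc
Kcnn3, chr3:89520014-89520163, plus strand: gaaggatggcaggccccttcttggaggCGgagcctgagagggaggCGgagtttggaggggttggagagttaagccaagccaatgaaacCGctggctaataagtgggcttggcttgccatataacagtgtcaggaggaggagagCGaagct
Kcnma1, chr14:24004206-24004355, minus strand: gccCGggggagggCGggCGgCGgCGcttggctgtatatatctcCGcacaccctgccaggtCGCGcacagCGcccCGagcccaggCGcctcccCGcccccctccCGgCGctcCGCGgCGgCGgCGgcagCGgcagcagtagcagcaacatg

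The windows hold 13 CG in Kcnd3, 3 in Kcng4, 4 in Kcnn3 and 20 in Kcnma1, and the choice of these 4 genes fixes that contrast. Among the other called genes with a RefSeq window, the same 150 bases hold 12 CG in Cacna2d3, 8 in Kcnh2 and 1 in Kcnip3. These counts are for the first listed start only. The window at another start of Kcnip3 had a GC content of 73.3% and was CpG-rich by the rule given below. RefSeq promoter windows of 300 bases (250 before to 50 after a start) matched 88 of the 111 members, with 119 starts. A window was called CpG-rich at a GC content of at least 55% and an observed over expected CpG ratio of at least 0.65. That held for 31.1% of members' windows and 28.1% of all 32851 windows, and for 4 of the 9 windows of the called genes. The 32851 windows include those of genes not named on the array. Among measured genes it held for 34.9% of members' windows, against 51.4% of all measured genes' windows. Among genes measured on 1 array only it held for 34.2% of members' windows, against 28.6% of all such genes' windows. Where both arrays were above the floor it held for 36.0% of 25 members' windows, against 57.1% of 7916 windows of all such genes, and where both were below it for 26.8% of members' windows, against 20.1%.

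Short motifs were searched on both strands of the same windows. CAGCTG, an E-box core that reads the same on both strands, was in 24.4% of members' windows and 16.3% of all windows. GGGCGG, the GC box, was in 47.1% of members' windows and 35.7% of all windows. All windows include those of genes not named on the array. Among measured genes the GC box was in 47.6% of members' windows, against 58.5% of all, and CAGCTG in 25.4%, against 15.2%. That contrast mixes genes above the floor on both arrays with those above it on 1, which are a larger part of the members. Among genes measured on 1 array only the GC box was in 47.4% of members' windows, against 41.5% of all such genes' windows, and CAGCTG in 31.6%, against 17.8%. Below the floor on both arrays the GC box was in 46.4% of members' windows, against 32.4% of all such genes' windows. Where both arrays cleared the floor the GC box was in 48.0% of members' windows and 62.7% of all such genes' windows, and CAGCTG in 16.0% and 14.5%. TATAAA was in 8.40% of members' windows and 13.6% of all windows. TTCAGCACC, the left part of the element bound by the neuronal gene repressor REST, was in 0 of 119 members' windows and 0.371% of all windows. A direct repeat of AGGTCA or GGGTCA with 5 bases between the copies, the arrangement bound by retinoic acid receptors, was in 0 of 119 and 0.0304% of all windows. The REST and retinoic acid receptor motifs are so rare in all windows that 0 of 119 does not show a lack of them in members. Such matches describe letters in these windows only.

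Calcium- and sodium-activated potassium channels, which couple ion entry to repolarisation, were all bounds. Of 7 genes grouped by symbol alone 5 were measured, 1 at least 2-fold higher and 1 lower. Kcnn3, a small-conductance (SK) pore opened by calcium through calmodulin, gave 2.64 in EloA-/- bodies and 0.59 in EloA+/+ bodies, at least 2.57-fold higher. Kcnma1, the pore of the large-conductance (BK) channel, gave 0.70 in EloA-/- bodies and 2.88 in EloA+/+ bodies, at least 2.81-fold lower. Kcnmb4, the neuronal accessory subunit of BK, was above the floor on both arrays with 13.5 in EloA-/- and 19.2 in EloA+/+ bodies, 1.42-fold lower, which is beyond the SD between probes and was not called. Kcnmb2, another BK accessory gene, was below the floor on both arrays. Kcnu1, the sperm relative of BK, gave 0.59 in EloA-/- and 1.70 in EloA+/+ bodies and lies on chromosome 8. It is counted here by its symbol, and whether calcium or sodium opens it was not examined. Kcnt1, a sodium-activated pore, gave 0.88 in EloA-/- and 1.20 in EloA+/+ bodies, and Kcnn1, an SK pore on chromosome 8, gave 1.30 in EloA-/- and 0.56 in EloA+/+ bodies.

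Inward rectifiers, which hold the resting potential, had no called gene among the 4 measured of 12. All 4 were on the lower side by any margin, as were 51.6% of all measured genes. Kcnj8, a pore of the ATP-sensitive channel, gave 4.48 in EloA-/- and 6.27 in EloA+/+ bodies, a log2 difference of -0.48 that was -0.22 with the median of chromosome 6 removed. Kcnj9, a G-protein-gated subunit, gave 1.32 in EloA-/- and 1.76 in EloA+/+ bodies. Kcnj4, a strong rectifier, gave 1.25 in EloA-/- and 1.28 in EloA+/+ bodies, and the deposited values gave the other sign (0.01). Kcnj16 lay at the floor, with a bound of -0.02 that was -0.43 with the median of chromosome 11 removed. Kcnj1, Kcnj2, Kcnj3, Kcnj5, Kcnj6, Kcnj12, Kcnj14 and Kcnj15 were below the floor on both arrays, at 0.27 to 0.88 in EloA-/- bodies and from 0.34 up to just under the floor in EloA+/+ bodies.

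Tandem-pore potassium channels carry the background leak that sets the resting potential, and the 3 measured of 8 were above the floor on both arrays. Kcnk4, the mechanosensitive TRAAK channel, gave 2.65 in EloA-/- and 1.47 in EloA+/+ bodies, 1.80-fold higher. Its other probe, below the floor on both arrays, gave 0.84 in EloA-/- and 0.49 in EloA+/+ bodies, with the same sign. Kcnk1, a weak inward leak channel, gave 9.72 in EloA-/- and 6.69 in EloA+/+ bodies, a difference of 0.54 that was 0.11 with the median of chromosome 8 removed. Kcnk10 gave 1.5 in EloA-/- and 1.74 in EloA+/+ bodies, within the SD between probes. Among the accessory genes, Kcnab3, a subunit of Shaker channels, gave 4.94 in EloA-/- and 3.64 in EloA+/+ bodies, a difference of 0.44 that was 0.03 with the median of chromosome 11 removed. Kcnab1, a related subunit, gave 1.14 in EloA-/- and 0.75 in EloA+/+ bodies.

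Sodium channels, which fire the action potential, and pacemaker channels were mostly below the floor. Of 5 sodium channel genes named by a probe only Scn10a, known from pain-sensing neurons, was measured, at 1.14 in EloA-/- and 1.13 in EloA+/+ bodies, just above the floor, with a sign that turned after centring (-0.08). Scn3a, the pore of the embryonic brain, gave 0.62 in EloA-/- and 0.81 in EloA+/+ bodies, and Scn8a gave 0.30 in EloA-/- and 0.38 in EloA+/+ bodies. Scn11a and the accessory Scn3b were also below the floor on both arrays, as were the pacemaker genes Hcn2 and Hcn3. Tubb3, a tubulin of young neurons, had 168 in EloA-/- and 179 in EloA+/+ bodies on the same arrays. Whether each sodium channel probe detects its transcript was not tested.

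Voltage-gated calcium channels, which couple depolarisation to secretion, contraction and transcription, were mostly above the floor on 1 array. Of 15 genes grouped by symbol alone 12 were measured, with a median of -0.06. Of these 2 were above the floor on both arrays, 3 on the EloA-/- array only and 7 on the EloA+/+ array only. The 15 include 5 Cacng genes, 3 of them measured, whose part in calcium channels was not examined. None was called higher and 1 was called lower. Cacna2d3, an auxiliary subunit that brings calcium pores to the membrane, gave 0.60 in EloA-/- bodies and 3.36 in EloA+/+ bodies, at least 3.28-fold lower. Its relative Cacna2d1 ran the other way, with 1.67 in EloA-/- and 0.94 in EloA+/+ bodies, at least 1.62-fold higher.

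Among the pores, Cacna1a, the P/Q-type channel of presynaptic terminals, gave 0.60 in EloA-/- and 1.78 in EloA+/+ bodies, at least 1.74-fold lower on chromosome 8. Cacna1c, the L-type channel of heart and neurons, gave 0.64 in EloA-/- and 1.69 in EloA+/+ bodies, at least 1.65-fold lower on chromosome 6. With each chromosome's median removed, Cacna1a was at -1.23 and Cacna1c at -0.46. Cacna1b, the N-type channel, gave 1.14 in EloA-/- and 0.46 in EloA+/+ bodies, and Cacna1f, the retinal L-type channel, gave 1.28 in EloA-/- and 0.41 in EloA+/+ bodies. Cacna1h, a T-type channel, lay at the floor, and its relative Cacna1g was below it on both arrays.

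Of the cytoplasmic beta subunits, Cacnb1 gave 2.35 in EloA-/- and 1.28 in EloA+/+ bodies, 1.84-fold higher on chromosome 11, and 0.46 on the log2 scale with the median of that chromosome removed. Cacnb4 gave 0.69 in EloA-/- and 1.70 in EloA+/+ bodies, at least 1.66-fold lower. Cacng7, Cacng8 and Cacng6 follow each other with no other protein-coding gene between them on chromosome 7 in GRCm38.p6. Cacng7 gave 2.36 in EloA-/- and 2.46 in EloA+/+ bodies, Cacng8 gave 0.65 in EloA-/- and 1.06 in EloA+/+ bodies, and Cacng6 gave 0.86 in EloA-/- and 1.36 in EloA+/+ bodies. Cacng7 differed by less than the SD between probes, with a sign that turned with the values as deposited (0.08), and Cacng8 and Cacng6 have bounds only, of -0.05 and -0.40.

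TRP channels held the widest difference of the family, in Trpm4, while Trpm7 differed by less than the SD between probes. Trpm4, a cation channel opened by intracellular calcium that itself carries sodium and potassium but not calcium, gave 9.14 in EloA-/- bodies and 0.96, below the floor, in EloA+/+ bodies. That is at least 8.90-fold higher, a log2 bound of 3.15. With the floor at the 75th percentile (5.21) the bound was 0.81, because the floor then lies close to the EloA-/- value. Trpm7, a channel fused to a kinase, which most cells use for magnesium uptake, gave 25.5 in EloA-/- and 23.2 in EloA+/+ bodies, a difference of 0.14. Trpm5, the taste cell relative of Trpm4, gave 1.21 in EloA-/- and 0.45 in EloA+/+ bodies, at least 1.18-fold higher. Trpm2, Trpm6 and Trpm8 were below the floor on both arrays.

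Trpc6, a channel opened by diacylglycerol, gave 0.90 in EloA-/- and 1.84 in EloA+/+ bodies, at least 1.79-fold lower, while Trpc1, Trpc5 and Trpc7 were below the floor on both arrays. Trpv2 on chromosome 11 and Trpv5 on chromosome 6 lay near the floor, with bounds of -0.16 and 0.03. With each chromosome's median removed they were at -0.57 and 0.29. Trpv3, Trpv4 and Trpa1 were below the floor on both arrays. Trpc4ap, an adaptor that binds a TRP channel and is not a pore, gave 4.76 in EloA-/- and 6.68 in EloA+/+ bodies, 1.40-fold lower.

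Chloride channels and exchangers of the Clcn family were above the floor on both arrays in 4 of 7 genes, and none of the 5 measured was called. Clcn3, an exchanger of endosomes, gave 17.0 in EloA-/- and 10.8 in EloA+/+ bodies, 1.58-fold higher, and 0.23 on the log2 scale with the median of chromosome 8 removed. Clcn7, the exchanger of lysosomes, gave 9.92 in EloA-/- and 13.4 in EloA+/+ bodies, 1.36-fold lower. Clcn2, a channel of the cell surface, gave 3.61 in EloA-/- and 4.52 in EloA+/+ bodies, and Clcn4 gave 1.87 in EloA-/- and 1.74 in EloA+/+ bodies. Clcn6, an exchanger of late endosomes, gave 1.52 in EloA-/- and 0.60 in EloA+/+ bodies, at least 1.48-fold higher. Clcn1, the channel of skeletal muscle, and Clcn5 were below the floor on both arrays.

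**Figure D3:**
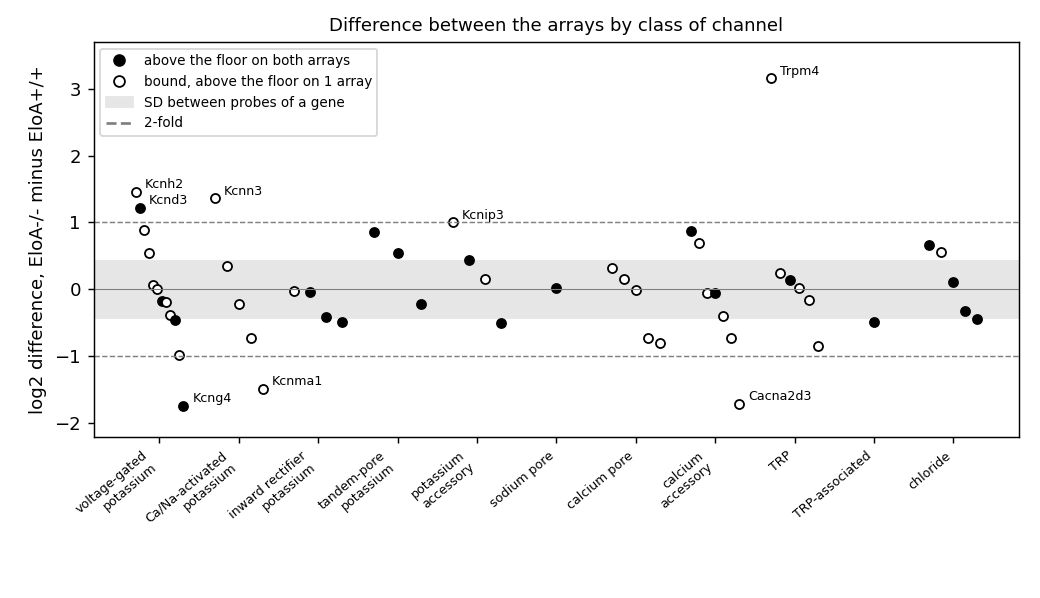
Log2 difference (EloA-/- minus EloA+/+) of each measured channel gene by class, with filled circles for genes above the floor on both arrays and open circles for bounds. Dashed lines mark 2-fold and the grey band the SD between probes of 1 gene (0.43), and the 8 labelled genes lie outside the dashed lines, 5 above and 3 below.

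Some members are neighbours on a chromosome. Trpm5 and Kcnq1 are adjacent in the order of protein-coding genes, and both were above the floor only in EloA-/- bodies, at bounds of 0.24 and 0.89. Kcna3 and Kcna2 are adjacent too, and Kcna3 was at the floor while Kcna2 was at a bound of 0.55. Of the 6 members on chromosome 8, all measured, 3 were on the higher and 3 on the lower side, and over the 39 measured members outside chromosomes 6, 8 and 11 5 were called higher (12.8%) and 2 lower (5.13%), against 5.89% and 6.21% of all genes measured there.

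Channels outside the family were described from chosen lists. Ligand-gated channels, the receptors of fast synaptic transmission, had 22 of 43 genes measured, 5 at least 2-fold higher (22.7%) and 4 lower (18.2%), against the 6.77% and 5.99% of all measured genes, with a median of 0.02. Grin2b, an NMDA receptor subunit on chromosome 6, gave 46.3 in EloA-/- and 21.2 in EloA+/+ bodies. Grin2a, its relative, gave 3.65 in EloA-/- bodies and 0.58, below the floor, in EloA+/+ bodies. Glra1, a glycine receptor subunit on chromosome 11, gave 1.15 in EloA-/- and 5.80 in EloA+/+ bodies, and Chrna4, a neuronal nicotinic subunit, gave 1.98 in EloA-/- and 6.59 in EloA+/+ bodies. The others called were Chrnd, P2rx7 and Gria3, at least 2.27-fold, 2.19-fold and 2.13-fold higher, P2rx1, 3.13-fold lower, and Chrnb1, at least 2.88-fold lower. P2rx1 and Chrnb1 lie on chromosome 11.

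Among pumps, store calcium channels and transporters that build the ion gradients 13 of 24 were measured, 1 at least 2-fold higher and 1 lower (7.69% each), with a median of -0.25. Slc12a5, the neuronal chloride extruder, was at least 2.02-fold higher (2.07 in EloA-/- and 0.98 in EloA+/+ bodies), and Orai3, a store-operated calcium channel, at least 2.17-fold lower (0.88 in EloA-/- and 2.23 in EloA+/+ bodies). Channel scaffolds and regulators had 22 of 26 measured, 2 higher and 2 lower (9.09% each), with a median of -0.03. Dlg4, the postsynaptic scaffold, gave 3.27 in EloA-/- and 0.49 in EloA+/+ bodies and lies on chromosome 11, while Fgf13, which binds sodium channels, gave 2.30 in EloA-/- and 0.40 in EloA+/+ bodies. Cntn2, an axonal adhesion protein that clusters potassium channels, gave 0.71 in EloA-/- and 3.03 in EloA+/+ bodies, and Nalcn, a sodium leak channel, gave 0.51 in EloA-/- and 2.09 in EloA+/+ bodies.

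**Figure D4:**
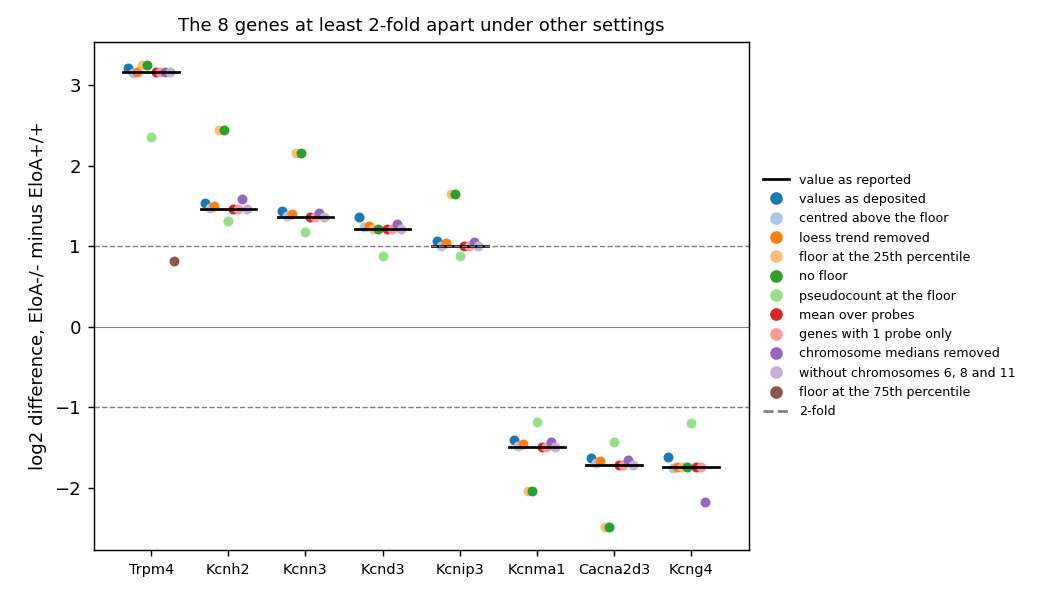
Log2 difference (EloA-/- minus EloA+/+) of the 8 channel genes at least 2-fold apart, as reported (black bar) and under each other setting that measured the gene (coloured points), with dashed lines at 2-fold. Every point keeps the side of the reported value, and those inside the dashed lines are Trpm4 when the 75th percentile was the floor (0.81) and Kcnd3 and Kcnip3 with a pseudocount (0.88 each).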

How the data were processed

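Per the labels' protocols, 1 µg of total RNA from each culture was made into digoxigenin-labelled cRNA with a chemiluminescent labelling kit from Applied Biosystems. The deposited values are linear intensities, 1 column per array; their medians were 1.03 on the EloA-/- array and 1.02 on the EloA+/+ array, while no source used here states the authors' normalization, background correction or filters. Each column was assigned by its sample identifier, and no column was left unmapped. Of 32440 probes 14253 have 1 gene symbol in the platform annotation, 243 several and 17944 none, and only the first were named. Python 3.11.15 with pandas 2.3.3 was used.

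The arrays were quantile normalised, the floor was the 50th percentile, and where probes shared a gene, the one of highest mean log2 value stood for it. A gene was called at 2-fold and no p-value is given, since 1 array per genotype leaves no error. The steps were tested on simulated data, with changes planted only in genes of 1 probe well above the floor. Recovery of changes near the floor, where most members lie, was not tested. Promoter windows and chromosomes are from RefSeq (GRCm38.p6). By gene identifier all 111 members matched a chromosome, and 88 matched a promoter window.

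The members and gene lists were chosen with earlier results of these data known. Named members were those at least 1.5-fold apart, 3 per class with the highest mean log2 value and those with several probes, and listed genes outside the family were named where 2-fold apart. Others, such as members below the floor or at it, were named after their values were seen.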

Additional observations from a re-analysis of the deposited data

How the results depend on the processing

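The counts of channel genes at least 2-fold higher (5) and lower (3) depended on the floor, since most members lie near it. They were 12 higher and 11 lower of 97 genes when the 25th percentile was the floor, 0 and 0 of 9 genes with the 75th, and 23 and 19 of 111 genes with no floor. The background moved the same way, to 8.65% higher and 7.90% lower, 2.61% and 2.19%, and 10.97% and 10.3% of all genes measured at those settings. With a pseudocount at the floor 3 were higher (5.66%, beside 4.53% of all measured genes). With chromosome medians removed 5 were lower (9.43%, beside 5.74%), because Cacna1a and Kcnu1 on chromosome 8 passed 2-fold. At 1.5-fold the counts were 10 higher and 9 lower (18.9% and 17.0%, beside 15.8% and 14.8% of all measured genes). At 3-fold 1 was higher and 2 lower (1.89% and 3.77%, beside 2.23% and 1.86%). The median of the members ranged from -0.17 to 0.00 over all settings of scaling, floor, probes and chromosomes. Over the 35 named genes, 318 values under other settings moved by less than the SD between probes and 30 by more, and no gene at least 2-fold apart changed sign, while Cacna1h, Scn10a, Cacng7, Kcnc1 and Kcnj4, all near 0, turned sign under 1 setting each. Genes below the floor on both arrays cannot be compared at all, and 1 array per genotype leaves every value without a replicate check. No paired analysis was possible because each genotype has 1 array.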
